A study of Mus musculus with 2 samples.

Results

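The 10 genes of extracellular matrix turnover described here were followed through the cells of mouse tumours. They were 8 matrix metalloproteinase genes (Mmp2, Mmp3, Mmp9, Mmp10, Mmp12, Mmp13, Mmp14 and Mmp19) and 2 genes of tissue inhibitors of metalloproteinases (Timp1 and Timp2). They were chosen by symbol, and all 10 were found among the 31053 features of the deposited matrices.

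The tumours were grown from MC38 cells, a colon adenocarcinoma line derived from the C57BL/6 mouse strain, injected into a flank of C57BL/6 mice. Treatment began 5 days after injection, at a mean tumour size of 100 mm3, and lasted 14 days. Mice of the SHP099 group received 5 mg/kg of SHP099 hydrochloride into the stomach daily. SHP099 is an allosteric inhibitor of SHP2, the phosphatase encoded by Ptpn11. Control mice received PBS according to the protocol, although the treatment label of their sample reads untreated. Each group had 6 mice and gave 1 single-cell library. The sources used here do not say how many tumours went into each. With 1 library per group no difference between groups could be tested, and every interval below is a 95% interval that covers counting error only.

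Matrix metalloproteinases are zinc-dependent enzymes that are made as inactive precursors and cut collagens, elastin, proteoglycans and other proteins outside the cell. Tissue inhibitors bind their active sites, so the balance of both sets of proteins limits matrix breakdown. In tumours they are known to come from fibroblasts and macrophages as well as from the malignant cells. Several of the genes are known targets of the AP-1 transcription factor.

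Mmp13, Mmp12, Mmp3 and Mmp10 are neighbours, lying within 237.7 kb of chromosome 9 (GRCm38, GENCODE M21, 7272514 to 7510240) on the same strand. Their start site regions are shown because these neighbours had different cell sources, described below. RefSeq (GRCm38.p6) gave a promoter for 7 of the 10 genes, with none for Mmp2, Mmp9 and Mmp19. Each line below runs from 100 bases before the RefSeq start site to 25 after it, on the plus strand. Capitals mark the AP-1 motif (TGAGTCA or, on the other strand, TGACTCA) and the TATA motif (TATAAA).
Mmp13 at chr9:7272414-7272538: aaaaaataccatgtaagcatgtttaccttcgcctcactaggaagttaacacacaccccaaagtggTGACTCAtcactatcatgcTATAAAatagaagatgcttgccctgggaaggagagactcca
Mmp12 at chr9:7347274-7347398: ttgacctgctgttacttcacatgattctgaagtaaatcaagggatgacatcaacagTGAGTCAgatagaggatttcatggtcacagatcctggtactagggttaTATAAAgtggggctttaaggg
Mmp3 at chr9:7445722-7445846: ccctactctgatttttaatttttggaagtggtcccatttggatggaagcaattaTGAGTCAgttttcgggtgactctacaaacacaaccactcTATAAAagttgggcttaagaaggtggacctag
Mmp10 at chr9:7502242-7502366: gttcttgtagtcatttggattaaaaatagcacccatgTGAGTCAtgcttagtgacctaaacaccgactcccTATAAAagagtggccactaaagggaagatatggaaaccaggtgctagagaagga

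Each of these 4 windows held both motifs. The AP-1 motif began 35 bases before the start site in Mmp13, 44 in Mmp12, 46 in Mmp3 and 63 in Mmp10. The TATA motif began 16 bases before the start site in Mmp13, 7 in Mmp3 and 29 in Mmp10, but 4 bases after it in Mmp12. This start site of Mmp12 is the second of 2 in RefSeq, 2993 bases downstream of the GENCODE start, and the first held neither motif. Mmp14 on chromosome 14, Timp1 on chromosome X and Timp2 on chromosome 11 held neither in their 300 promoter bases. Searched on both strands, the AP-1 motif was found in 5.20% of 32851 RefSeq promoters of that length, the TATA motif in 13.6% and both in 0.941%. These matches describe letters only.

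After filtering, 7702 cells of the SHP099 library and 7688 of the control library were used, with a median of 10752 and 9162 unique molecular identifiers (UMIs, one per captured transcript). Cells were clustered without the metalloproteinase and inhibitor genes and classed by other markers. The largest class, 4293 SHP099 and 4181 control cells, lacked Xist RNA. In it 8 tumour-like marker genes summed to 536 and 604 CPM (CPM, or counts-per-million, is relative to all UMIs of the class). The same genes summed to 185 and 369 CPM in fibroblasts and 93.2 and 113 CPM in phagocytes. In the main clustering no cluster of the largest class met the naming rule for this or any other marker list. At Leiden resolution 2 a cluster of 644 such cells, led by Ptn and Mfap4, met it for the fibroblast list, with 3 markers. The 6 epithelial markers summed to 1.36 and 0.27 CPM in the largest class, so the class is called Xist-negative by its rule. The other classes were mononuclear phagocytes (2767 and 2678 cells), fibroblasts (55 and 83), endothelial cells (53 and 34), dendritic cells (77 and 85), T cells (399 and 517), NK cells (53 and 100) and plasmacytoid dendritic cells (5 and 10). Median UMIs per cell were 20169 in SHP099 and 24337 in control Xist-negative cells, 4200 and 4332 in phagocytes, 7848 and 7052 in fibroblasts, and 2037 and 2385 in T cells. The mitochondrial share of UMIs in Xist-negative cells was 3.60% and 3.09%, and Malat1 stood at 24337 and 17825 CPM. The libraries had 100 cell barcodes in common.

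Most members had one main source, and the 4 chromosome 9 neighbours did not share it. Of all Mmp3 UMIs, fibroblasts gave 94.0% in the SHP099 library and 95.7% in the control library, although they made up 0.714% and 1.08% of cells. Phagocytes gave 95.8% of the Mmp12 UMIs in both libraries. Mmp13 was divided between fibroblasts (46.6% in SHP099, 36.4% in control) and phagocytes (49.4% and 57.6%). Phagocytes gave 62.4% and 72.5% of Mmp19. Xist-negative cells gave 84.1% and 73.2% of Mmp2, 83.7% and 85.7% of Mmp9, 87.6% and 88.5% of Mmp14, 87.8% and 87.2% of Timp1, and 95.7% and 96.6% of Timp2. These shares depend on how many cells of each class were captured. As CPM within a class, fibroblasts had the highest level of 7 members in both libraries, Mmp10 among them at 6 and 1 UMIs, phagocytes of Mmp9 and Mmp12, and Xist-negative cells of Timp2. The phagocyte level of Mmp9 rested on 5 SHP099 and 3 control cells, which held 95.8% and 87.3% of its UMIs in that class.

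**Figure D1:**
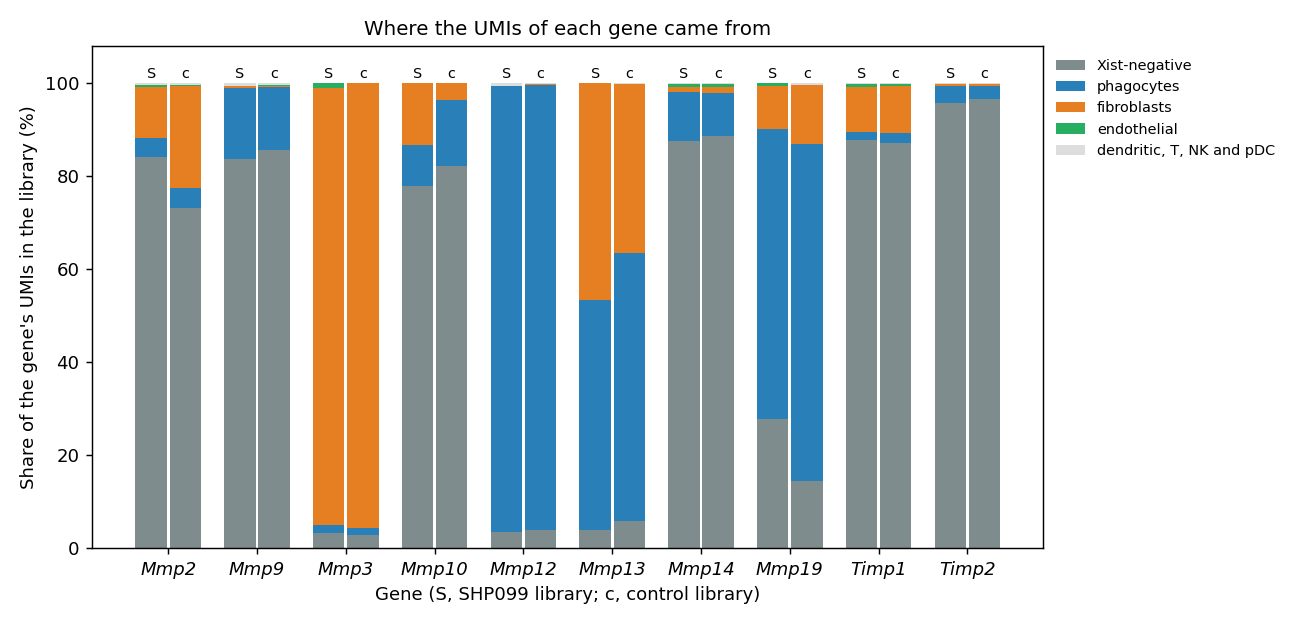
Share of each gene's UMIs (%, vertical axis) that came from each class of cells, with the SHP099 library (S) left of the control library (c) for each gene. Mmp3 came mostly from fibroblasts (94.0% and 95.7%), Mmp12 from phagocytes (95.8% in both) and Timp2 from Xist-negative cells (95.7% and 96.6%).

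**Figure D2:**
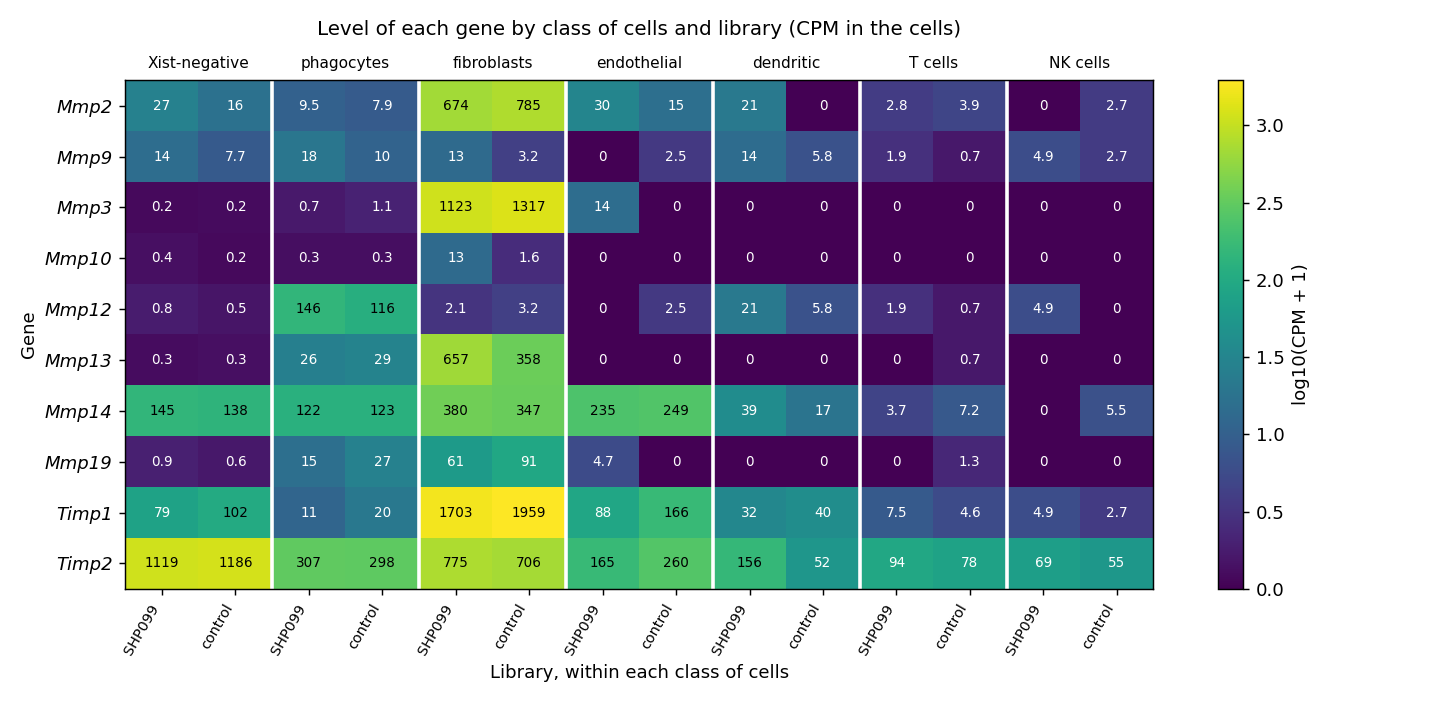
Level of each gene (rows, CPM as numbers, colour on a log10(CPM + 1) scale) in 7 classes of cells, SHP099 left of control within each class. Fibroblasts stand out for Mmp2, Mmp3, Mmp13 and Timp1 and phagocytes for Mmp12, while T and NK cells lie near 0 for most genes.

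The gelatinases Mmp2 (chromosome 8, 92827291 to 92853420) and Mmp9 (chromosome 2, 164940780 to 164955850) cut denatured collagen and the type IV collagen of basement membranes. Both were higher in Xist-negative cells of the SHP099 library. Mmp2 was at 26.9 CPM in SHP099 (2480 UMIs in 1289 cells) and 15.8 CPM in control (1646 UMIs in 913 cells), a log2 ratio of 0.75 (0.67 to 0.86) with a prior of 0.5 CPM. Mmp9 was at 14.1 CPM in SHP099 (1299 UMIs in 863 cells) and 7.67 CPM in control (799 UMIs in 597 cells), a log2 ratio of 0.83 (0.75 to 1.00). Of the 10 members 5 passed a mean of 10 CPM in this class, and these 2 were at least 1.5-fold higher, against 0.987% of 6891 genes. Mmp9 passed that mean only through its SHP099 level, since its control level of 7.67 CPM was under the limit. None of the 5 was at least 1.5-fold lower, against 0.203% of those genes.

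Mmp9 was higher in SHP099 in all 6 Xist-negative clusters of at least 500 cells, with log2 ratios of 0.36 to 1.23, and lower in the small seventh one at 2 and 4 UMIs. With clusters weighted alike between the libraries its ratio was 0.67. Mmp2 was also higher in those 6 clusters, by 0.07 to 0.90, and lower in the small seventh one at 0 and 9.11 CPM. But its weighted ratio was 0.45, under the 1.5-fold limit. Its level was highest in a cluster led by Clec3b, Aspn, Dpt and Postn, at 73.2 CPM in SHP099 and 69.9 CPM in control. That cluster held 15.1% of SHP099 and 7.53% of control Xist-negative cells. It carried Dpt, a fibroblast marker, at 190 and 162 CPM, but Col1a1, at 11267 and 9635 CPM in fibroblasts, was at 34.1 and 15.9 CPM. All 7 fibroblast markers together summed to 4679 CPM in SHP099 and 4170 CPM in control there, with 7 higher in SHP099. In fibroblasts they summed to 27436 and 26176 CPM. Without that cluster Mmp2 was at 20.9 and 12.8 CPM in Xist-negative cells, a log2 ratio of 0.69.

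Fibroblast markers moved with Mmp2 in Xist-negative cells. The 7 genes of the list summed to 1747 CPM in SHP099 and 1330 CPM in control, 6 of them were higher in SHP099, and Lum was at 1.16 and 0.64 CPM. The part of this shift in the Mmp2 difference was not tested. A UMI of Mmp2 was found in 30.03% of SHP099 and 21.8% of control Xist-negative cells, and in 5.07% and 2.87% after drawing each cell down to 2000 UMIs and leaving out shallower cells (30 and 74). T cells, which should lack it, had 0.75% and 1.16%, or 0.49% and 0.61% after the same drawing. For Mmp9 the drawn shares were 3.28% and 1.66% in Xist-negative cells and 0.99% and 0.31% in T cells.

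Fibroblasts had the highest Mmp2 level, at 674 CPM in SHP099 and 785 CPM in control, and 44 of 55 and 63 of 83 fibroblasts held a UMI. The log2 ratio was -0.22 (-0.43 to -0.02), and it was about 0 when each cell counted alike. In phagocytes Mmp2 was at 9.48 and 7.89 CPM, against 2.81 and 3.92 CPM in T cells.

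In phagocytes Mmp9 came from a handful of cells. It was at 18.3 CPM in SHP099 (238 UMIs) and 10.2 CPM in control (126 UMIs), a log2 ratio of 0.81, but only 15 and 17 phagocytes held a UMI. Together the 5 SHP099 cells that held 5 or more Mmp9 UMIs carried 95.8% of the class total, and 3 such control cells carried 87.3%. All 5 SHP099 cells and 2 of the 3 control cells fell in a small cluster led by Acp5. Outside these cells Acp5 was sparse in it, found in 25 of 143 SHP099 and 29 of 139 control cells. Over all phagocytes 1115 of 2767 and 1070 of 2678 cells held an Acp5 UMI. The cluster was shallow, its median cell holding 1100 UMIs in SHP099 and 1311 in control, against 4200 and 4332 in the class. Tumour-like markers summed to 280 and 289 CPM there, against 93.2 and 113 CPM in all phagocytes. The 5 and 3 cells together had Acp5, which encodes tartrate-resistant acid phosphatase, at 9312 CPM in SHP099 and 3729 CPM in control. Ctsk, the collagen-cutting cathepsin K, was at 6885 and 2769 CPM. Both are textbook genes of osteoclasts. The control cell outside the Acp5 cluster held no UMI of either. The neutrophil gene S100a8 was at 0 UMIs in these cells. The macrophage marker C1qa was at 2 UMIs in the 5 SHP099 cells, or 46.7 CPM. The other 143 SHP099 cells of the Acp5 cluster had it at 1192 CPM. In control 1 of the 3 cells held all 19 C1qa UMIs, and the other 139 cells of the cluster had 1358 CPM. Over all phagocytes Ly6g was at 0, and the 6 neutrophil markers summed to 38.9 CPM in SHP099 and 112 CPM in control.

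The phagocyte difference in Mmp9 therefore set 5 cells against 3. Without the Acp5 cluster Mmp9 was at 0.65 CPM in SHP099 (8 UMIs) and 1.55 CPM in control (18 UMIs), with the ratio turned to -0.83. Without the highest cell of each library it was 1.88, since 1 control cell held 91 of the 126 UMIs. The counting interval of 0.52 to 1.16 takes no account of this clustering of UMIs in cells.

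**Figure D3:**
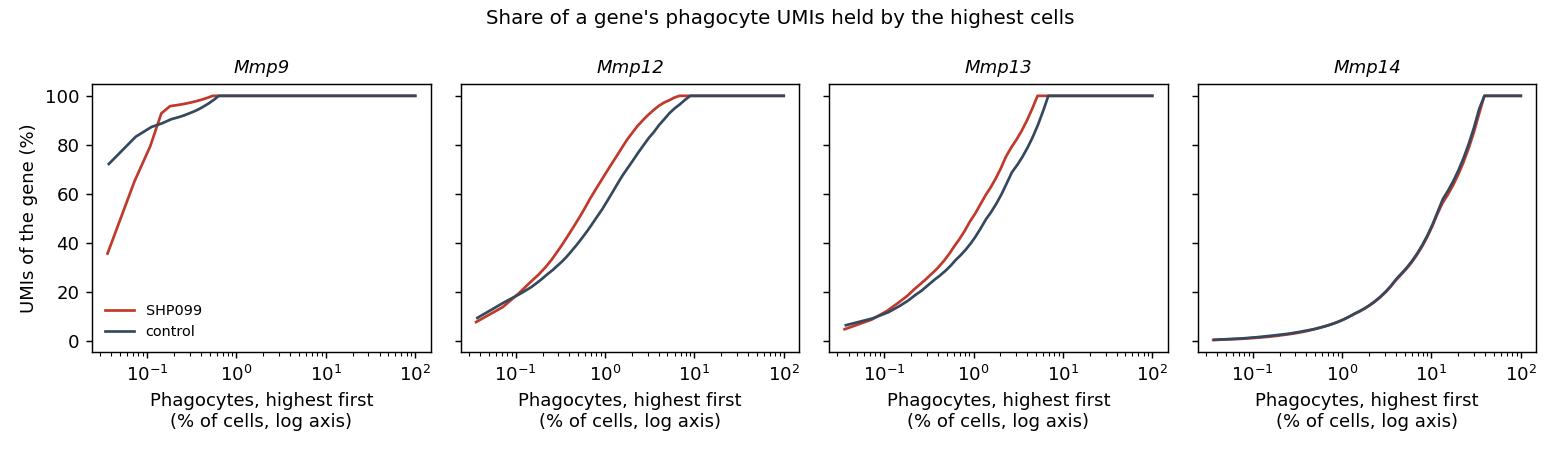
Share of a gene's phagocyte UMIs (%, vertical axis) held by the highest cells, as a share of phagocytes from the highest down (%, log axis), for Mmp9, Mmp12, Mmp13 and Mmp14 in SHP099 and control. The top 1% of phagocytes held 68.3% of Mmp12 UMIs in SHP099 and 55.8% in control, but 8.64% and 8.56% of Mmp14.

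The stromelysins Mmp3 (chromosome 9, 7445822 to 7455975) and Mmp10 (7502352 to 7510240) cut proteoglycans and fibronectin and activate other precursors of the family. Mmp3 was a fibroblast gene in both libraries. Fibroblasts held it at 1123 CPM in SHP099 (535 UMIs in 33 of 55 cells) and 1317 CPM in control (828 UMIs in 48 of 83 cells), a log2 ratio of -0.23 (-0.39 to -0.07). The direction was not stable, with the ratio at 0.36 when each cell counted alike. In Xist-negative cells it was at 0.21 and 0.23 CPM, never with more than 1 UMI in a cell, and in phagocytes at 0.69 and 1.06 CPM. Neither T nor NK cells held a UMI of it.

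Mmp10 was scarce, with 45 UMIs in the whole SHP099 library and 28 in the control library. Xist-negative cells held 35 and 23 of them, in 17 and 12 cells, and fibroblasts 6 and 1. At 0.38 and 0.22 CPM in Xist-negative cells it did not pass the 10 CPM limit there or in any other class, so no call was made. In fibroblasts it was at 12.6 CPM in SHP099 and 1.59 CPM in control, a log2 ratio of 2.65 (-0.06 to 8.51).

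Mmp12 (chromosome 9, 7344381 to 7369499) encodes macrophage metalloelastase, which cuts elastin. Over all phagocytes it was at 146 CPM in SHP099 (1896 UMIs in 179 cells) and 116 CPM in control (1429 UMIs in 234 cells), a log2 ratio of 0.33 (0.23 to 0.43). Fewer SHP099 phagocytes held a UMI, 6.47% against 8.74% in control, or 4.94% and 6.11% after drawing cells down to 2000 UMIs. T cells had 0.50% and 0.19%, and 0 of 203 and 0 of 327 cells after drawing. The sign of the ratio depended on weighting, at -0.09 when each cell counted alike and -0.39 when no cell gave more than 3 UMIs.

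One phagocyte cluster, led by Mmp12 itself with Spp1 and Arg1, held 85.6% of the SHP099 library's Mmp12 UMIs and 83.9% of the control library's. Spp1 encodes osteopontin and Arg1 arginase 1. It was a smaller part of SHP099 phagocytes, 10.8% (299 cells), than of control phagocytes, 23.0% (616 cells). The size of the gap depended on the clustering: with each library clustered alone the cluster of these genes held 18.9% (536 cells) and 24.5% (653 cells), and at resolution 2 it held 10.1% and 19.04%. With doublets kept it held 30.4% and 48.1%, and with stricter filters 18.9% and 33.3%. In the joint clustering the level within it was 948 CPM in SHP099 and 373 CPM in control, a log2 ratio of 1.35 (1.24 to 1.45). A UMI was found in 33.8% and 26.6% of its cells, and in 26.9% and 18.1% after drawing. Positive cells held 16.8 UMIs on average in SHP099 and 7.63 in control, with maxima of 147 and 135. Of the 10 members 6 passed 10 CPM in this cluster, with Mmp12 at least 1.5-fold higher, against 4.35% of genes, and Timp1 lower, against 3.66%.

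With each library clustered alone the levels in it were 552 and 353 CPM, a log2 ratio of 0.64 (0.54 to 0.75), and in 3 other clusterings the ratio was 1.09 to 1.21. At resolution 0.5 no such cluster was found. In the joint clustering, weighting the phagocyte clusters alike gave 208 CPM in SHP099 and 93.1 CPM in control, a log2 ratio of 1.16. Outside the Spp1 and Arg1 cluster Mmp12 was at 18.0 and 19.8 CPM, a log2 ratio of -0.14. Dividing phagocytes by a single UMI of Arg1 in place of clusters gave 276 and 185 CPM in those with one (1075 and 1405 cells). Those without one had 41.3 and 15.5 CPM, from 297 UMIs in 43 SHP099 cells and 77 UMIs in 36 control cells. Of these, 1 SHP099 cell held 117, and no control cell held more than 7. The median cell of the cluster held none in either library.

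Macrophage markers in this cluster summed to 27606 CPM in SHP099 and 31778 CPM in control over 8 genes, and monocyte markers to 764 and 405 CPM over 7 genes, 6 of them higher in SHP099. Their part in the Mmp12 difference was not tested. In the other clusters Mmp12 was at 68.3 and 36.9 CPM in the Acp5 cluster (43 and 24 UMIs). A cluster led by Fcrls and Ccl12 had 17.0 and 66.4 CPM (25 and 30 UMIs).

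**Figure D4:**
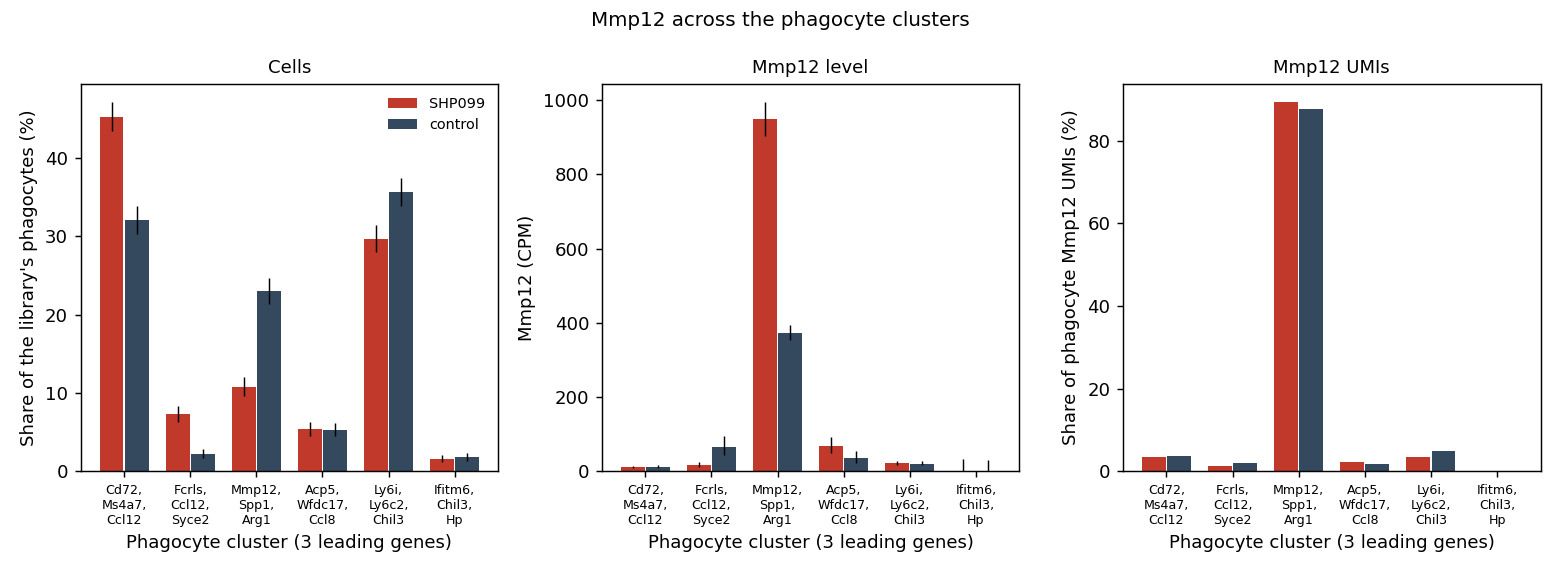
Share of phagocytes (%), Mmp12 level (CPM) and share of phagocyte Mmp12 UMIs (%) in each phagocyte cluster, named by 3 leading genes, SHP099 left of control, with 95% counting intervals as lines in the left and middle panels. The Spp1 and Arg1 cluster was smaller in SHP099 (10.8% against 23.0%) and higher in Mmp12 (948 against 373 CPM).

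Mmp13 (chromosome 9, 7272514 to 7283331) encodes the main collagenase of mouse tissue, which cuts fibrillar collagen. In fibroblasts it was at 657 CPM in SHP099 (313 UMIs in 17 of 55 cells) and 358 CPM in control (225 UMIs in 9 of 83 cells), a log2 ratio of 0.88 (0.63 to 1.13). A UMI was found in 30.9% of SHP099 and 10.8% of control fibroblasts, or, after drawing, in 12 of 50 (13.1% to 38.2%) and 8 of 67 (5.30% to 22.2%). One SHP099 cell held 158 UMIs and 1 control cell 87, and without them the log2 ratio was 0.61. Of the members, 7 passed 10 CPM in fibroblasts and Mmp13 was the 1 that was at least 1.5-fold higher, but 16.7% of all genes were so in this small class. None was lower, against 13%. Macrophage markers in fibroblasts summed to 1142 CPM in SHP099 and 799.8 CPM in control, with 6 of 8 higher, and tumour-like markers to 185 and 369 CPM, with 2 of 8 higher. Their part in the Mmp13 difference was not tested.

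In phagocytes Mmp13 was at 25.6 CPM in SHP099 and 28.9 CPM in control, a log2 ratio of -0.17 (-0.40 to 0.04). It was highest in the Spp1 and Arg1 cluster, at 86.7 and 67.3 CPM. With clusters weighted alike the ratio turned to 0.25. Mmp13 was found more often in phagocytes with Mmp12: a UMI of it was present in 28.5% of SHP099 phagocytes with Mmp12 and 3.55% of those without it, and in 25.6% and 5.03% in control. Within the Spp1 and Arg1 cluster these shares were 32.7% and 6.57% in SHP099, and 27.4% and 12.4% in control. Most phagocytes with Mmp13, 92 of 143 in SHP099 and 123 of 183 in control, held no Mmp12. Cells with more UMIs hold more of any gene, so this is a description.

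Mmp14 (chromosome 14, 54431612 to 54445364) encodes a membrane-bound enzyme that cuts collagen at the cell surface and activates the Mmp2 precursor together with the Timp2 protein. It was above 10 CPM in both libraries in Xist-negative cells, phagocytes, fibroblasts, endothelial cells and dendritic cells, and close to level in the first 4 of these. Xist-negative cells had 145 CPM in SHP099 and 138 CPM in control, a log2 ratio of 0.07 that turned to -0.04 with clusters weighted alike. Phagocytes had 122 and 123 CPM, a log2 ratio of -0.02 (-0.12 to 0.09). Fibroblasts had 380 and 347 CPM, 0.13 (-0.16 to 0.42), and endothelial cells 235 and 249 CPM, -0.09 (-0.50 to 0.33). Dendritic cells had 38.9 and 17.3 CPM (17 and 6 UMIs), 1.14 (-0.24 to 2.80). A UMI was found in 38.3% of SHP099 and 37.3% of control phagocytes, against 1.00% and 2.13% of T cells.

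Mmp19 (chromosome 10, 128790910 to 128800824) encodes an enzyme that cuts basement membrane proteins. In phagocytes it was at 15.1 CPM in SHP099 (196 UMIs in 158 cells) and 26.6 CPM in control (327 UMIs in 264 cells), 1.74-fold lower with a log2 ratio of -0.80 (-1.08 to -0.56). It was lower in 5 of 6 phagocyte clusters and higher in the smallest, at 5 and 4 UMIs. With clusters weighted alike the ratio was -0.57, just short of 1.5-fold. In phagocytes the mitochondrial share was 3.17% in SHP099 and 2.25% in control, and haemoglobin RNA stood at 422 and 1.95 CPM. Their part in the differences of Mmp19 and Timp1 in this class was not tested. The Mmp19 UMIs were spread over cells, with at most 5 in any of them. After drawing, 2.66% of SHP099 and 4.96% of control phagocytes held one, against 0 of 203 and 1 of 327 T cells, where a count of 0 (taken as up to 3 counts) allows a share of up to 1.48%. Fibroblasts had 60.9 and 90.6 CPM (29 and 57 UMIs), a log2 ratio of -0.57 (-1.27 to 0.10). Xist-negative cells had 0.94 and 0.62 CPM.

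Timp1 (chromosome X, 20870166 to 20874735) encodes an inhibitor that also binds the Mmp9 precursor. It was lower in SHP099 in all 7 Xist-negative clusters and all 6 phagocyte clusters, though the smallest cluster of each kind held under 100 cells in each library. Xist-negative cells had 78.6 CPM in SHP099 (7261 UMIs) and 102 CPM in control (10650 UMIs), a log2 ratio of -0.38 (-0.42 to -0.34). Per cluster they lay between 66.5 and 96.4 CPM in SHP099 and between 82.8 and 111 CPM in control, which overlap. Phagocytes had 10.9 CPM in SHP099 (141 UMIs in 111 cells) and 20.001 CPM in control (246 UMIs in 173 cells), 1.80-fold lower with a log2 ratio of -0.85 (-1.19 to -0.58). T cells, as a background, had 7.48 and 4.57 CPM. After drawing, a UMI was found in 1.96% and 3.22% of phagocytes and in 0.99% and 0.61% of T cells.

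Fibroblasts had the highest Timp1 level, at 1703 CPM in SHP099 and 1959 CPM in control, a log2 ratio of -0.20 (-0.33 to -0.07). Endothelial cells had 88.4 and 166 CPM (38 and 66 UMIs), a log2 ratio of -0.91 (-1.53 to -0.31). There 4 members passed 10 CPM, and Timp1 and Timp2 were at least 1.5-fold lower, against 15.9% of genes. Mmp2 was higher at 13 and 6 UMIs, against 18.3%. Fibroblast markers summed to 1173 and 713 CPM in these cells and pericyte markers to 1575 and 1066 CPM, and their part was not tested.

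Timp2 (chromosome 11, 118301069 to 118355740, minus strand) was found in nearly every Xist-negative cell, 98.5% in SHP099 and 98.1% in control. Its level was 1119 CPM in SHP099 and 1186 CPM in control, a log2 ratio of -0.08 (-0.10 to -0.07), and it was lower in all 7 clusters. The ratio turned to 0.12 when no cell gave more than 3 UMIs. Cells with Timp2 held a median of 19 UMIs in SHP099 and 23 in control. The limit therefore cut most of them to 3, and the ratio under it cannot show a direction. Phagocytes had 307 and 298 CPM, a log2 ratio of 0.04 (-0.02 to 0.11). T cells still had 94.5 and 77.8 CPM, and a UMI was found in 21.1% and 18.4% of them. Fibroblasts had 775 and 706 CPM, a log2 ratio of 0.13 (-0.07 to 0.34). Endothelial cells had 165 and 260 CPM and dendritic cells 156 and 52.0 CPM.

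Across phagocytes 7 of the 10 members passed 10 CPM. Mmp9 was at least 1.5-fold higher, against 3.59% of 6608 genes, and Mmp19 and Timp1 were lower, against 1.63%. The median log2 ratio of the 7 was -0.02, beside 0.04 over all genes tested, and that of the 5 in Xist-negative cells was 0.07, beside 0.02. In dendritic cells 5 passed and 4 were higher, where 21% of genes were higher and 16.1% lower, and all but Timp2 rested on at most 17 UMIs.

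**Figure D5:**
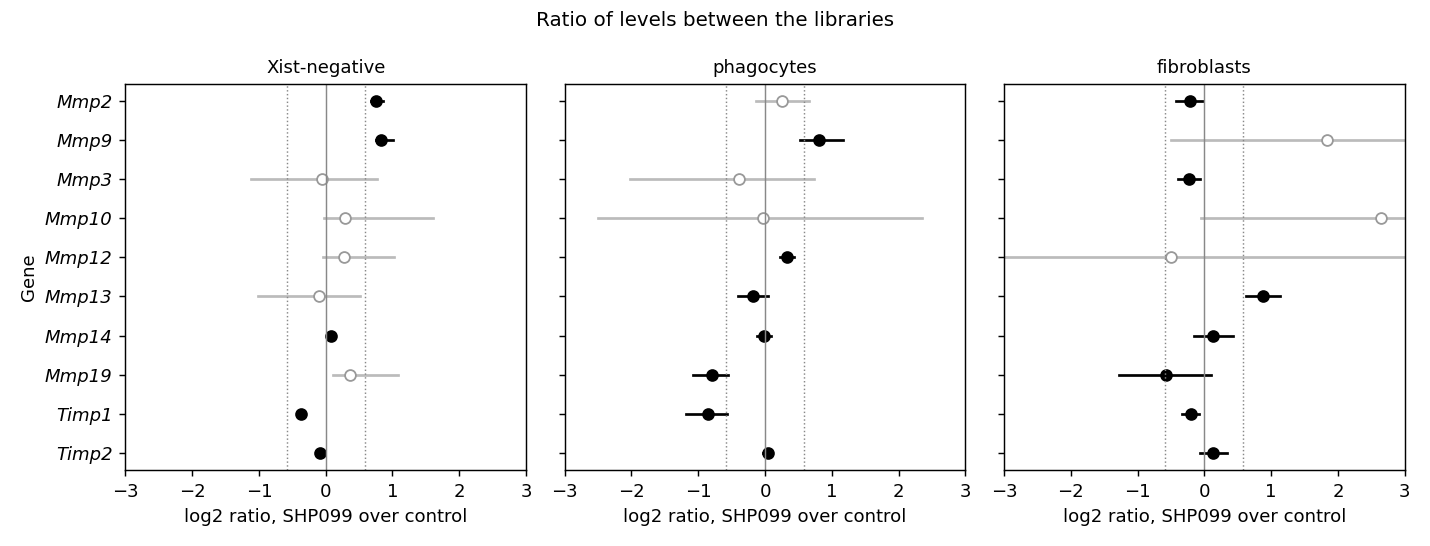
Log2 ratio of SHP099 over control (horizontal axis) for each gene in Xist-negative cells, phagocytes and fibroblasts, with 95% counting intervals, filled where the mean was at least 10 CPM. Dotted lines mark 1.5-fold. Mmp2 and Mmp9 lie to the right in Xist-negative cells, and Mmp19 and Timp1 to the left in phagocytes.

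Several members were found in the same fibroblasts. At least 3 of the 8 metalloproteinases were detected in 69.1% of SHP099 and 59.0% of control fibroblasts, in 8.41% and 4.62% of Xist-negative cells, and in 1.99% and 2.61% of phagocytes. Over 19 clusters of at least 50 cells, the genes with profiles most like each member were named among 7458 candidates by Pearson's r of log2(CPM + 1). All clusters come from the same libraries, so r is a description. Mmp12 was most like Arg1 (0.90), Mrc1 (0.89) and Pf4 (0.89), of which Arg1 and Mrc1 are genes of alternatively activated macrophages and Pf4 encodes a chemokine. Mmp3 was most like Sfrp1, Mfap2 and Cdh11 (0.99 each), and Mmp13 most like Cxcl14 (0.93). Mmp2 was most like Tmed3 (0.93), Mmp10 like Lum (0.89), Mmp14 like Dock1 (0.94), Mmp19 like the complement gene C3 (0.96), Timp1 like Rcn2 (0.92) and Timp2 like Rac3 (0.94). For Mmp9 the highest was Col7a1, at 0.79.

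Of 18 other genes of the family, 17 were in the files and few reached 10 CPM. In Xist-negative cells Mmp11, or stromelysin 3, was the 1 that passed, at 17.7 CPM in SHP099 and 15.8 CPM in control. In fibroblasts 4 passed: the inhibitor Timp3 was at 729 and 758 CPM, Mmp23 at 151 and 132 CPM, Mmp11 at 35.7 and 23.9 CPM, and the membrane inhibitor Reck was lower at 10.5 and 31.8 CPM (5 and 20 UMIs). In endothelial cells Timp3 was at 456 and 494 CPM and Mmp15 at 27.9 and 37.8 CPM. In phagocytes none passed.

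Of 28 genes of pericellular proteolysis, 17 passed in Xist-negative cells. The aggrecanase Adamts5 was higher at 15.6 CPM in SHP099 and 9.04 CPM in control. Plaur, the urokinase receptor, was lower at 22.1 and 33.6 CPM. In phagocytes 15 passed. Adam8 was lower at 91.9 and 165 CPM and the lysosomal protease Ctsl at 361 and 578 CPM. Ctsk was higher at 23.8 and 7.24 CPM, but 295 of its 309 SHP099 UMIs and 75 of its 89 control UMIs lay in the 5 and 3 Mmp9-rich cells. In fibroblasts 26 passed, with 4 higher, led by Adamts4 at 63.0 and 20.7 CPM, where 16.7% of all genes were, and 7 lower, where 13% were, among them Adamts5 at 103 and 301 CPM. In endothelial cells 24 passed, with 7 higher, among them the lysosomal protease Ctss at 62.8 and 22.7 CPM (27 and 9 UMIs), and none lower. Over all genes 18.3% were higher and 15.9% lower there.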

How the data were processed

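The authors deposited UMI counts, unnormalized whole numbers per gene and cell, as filtered matrices. The submitters' processing notes name Cell Ranger and the genome mm10 (GRCm38), and the software version in the file headers is 3.1.0. The sources used here give no annotation. Cells came from dissociated tumours by a droplet protocol for transcript 3′ ends. Total counts were 112901642 in SHP099 and 126218180 in control.

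Barcodes with at least 200 genes and at most 20% mitochondrial UMIs were kept, 7900 and 7952. Scrublet within scanpy marked 198 and 264 doublets (2.51% and 3.32%, against 6.32% and 6.36% expected), which were removed. Counts per cell were scaled, put on a log scale, and clustered for both libraries together (Leiden resolution 1, 2000 variable genes, 30 principal components, 15 neighbours). Genes of the studied lists, and mitochondrial, ribosomal protein, haemoglobin and immunoglobulin genes, were left out of the clustering. Clusters were named from marker lists with at least 3 markers found in 10% of cells and 2-fold above the rest. A cluster was Xist-negative where its Xist level was below 0.1 of the median over clusters. Macrophage and monocyte clusters were joined as phagocytes, and conventional and migratory dendritic lists as dendritic.

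Counts were summed per class and library and divided by the class total (CPM). Intervals were exact Poisson for levels, exact binomial for shares and exact conditional binomial for ratios. Log2 ratios used a prior of 0.5 CPM, which the intervals leave out. Called members had a mean of at least 10 CPM and a 1.5-fold ratio. No test or p-value was computed, since cells are not replicates. The ratio and interval code was tested on simulated data.

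The 10 members were always named; other family and proteolysis genes were named up to the 3 highest and 3 lowest ratios per class, and likeness partners up to 3 per member. One gene of the proteolysis list is not reported here. Ctsk and Acp5 in the Mmp9-rich cells, and the markers named beside single results, were chosen after their values were seen. Members and lists were chosen with earlier results of these data known. Alternatives concerned filters, doublets, clustering, weighting, scaling, prior and thresholds. The software was scanpy 1.11.5 with python-igraph 0.11.9 and scikit-learn 1.9.0 for clustering, scipy 1.17.1 for intervals, and matplotlib 3.10.9, under Python 3.11.15 with pandas 2.3.3, anndata 0.12.19 and numpy 2.4.6.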

Additional observations from a re-analysis of the deposited data

Results flagged for a closer look

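The log2 ratio of Mmp12, SHP099 over control, had opposite signs among phagocyte clusters. It was 1.35 in the Spp1 and Arg1 cluster, or 0.64 with each library clustered alone, and 0.88 in the Acp5 cluster, but -1.94 in the cluster led by Fcrls and Ccl12, which rested on 25 UMIs in SHP099 and 30 in control. For Timp2 the log2 ratio was 1.57 in dendritic cells, from 68 and 18 UMIs, and -0.65 in endothelial cells, from 71 and 103 UMIs. Few cells carried them: 19 SHP099 and 14 control dendritic cells held a UMI, with at most 18 and 2 in a cell. Among endothelial cells 22 and 19 held one, with at most 21 and 38. Fibroblast markers in dendritic cells summed to 197 CPM in SHP099 and 43.4 CPM in control, with 7 of 7 higher, and their part was not tested. With 1 library per group none of these differences between classes or clusters was tested.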

How the results depend on the processing

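No paired analysis was possible because each group had 1 library, and for the same reason no library could be left out. In phagocytes 1 member was at least 1.5-fold higher; this was 0 at Leiden resolution 0.5, with each cell counted alike, at a mean of at least 50 CPM, at a fold of 2, with at most 3 UMIs of a gene per cell and without the Acp5 cluster, and 2 with clusters weighted alike. The 2 lower members became 1 with clusters weighted alike, and 0 at 50 CPM or a fold of 2. In Xist-negative cells the 2 higher members became 1 with clusters weighted alike, and 0 with cells assigned one by one, at 50 CPM or at a fold of 2. Lower members were 0 in each. No called member of either class reached 50 CPM or a 2-fold ratio, so those limits could only give 0. With cells assigned one by one Mmp9's log2 ratio was at least 0.59, past 1.5-fold, so its loss came from the 10 CPM limit. Mmp9's phagocyte log2 ratio turned to -0.51 at resolution 0.5, -0.075 with at most 3 UMIs per cell and -0.83 without the Acp5 cluster. At resolution 0.5 a cluster of 297 cells with Acp5 among its leading genes was classed as dendritic. That cluster's part in the change was not tested. Over their alternatives, log2 ratios ran from -1.20 to -0.66 for Timp1 and from -0.90 to -0.57 for Mmp19 in phagocytes, and from 0.59 to 0.85 for Mmp9 and 0.45 to 0.77 for Mmp2 in Xist-negative cells. The limit on UMIs per cell, the removal of single clusters or of the highest cells, and all alternatives in fibroblasts were chosen after seeing the data, as was the comparison of the Spp1 and Arg1 cluster between clusterings. With each library clustered alone the 116 control cells named fibroblasts took in all 34 endothelial cells, so no fibroblast ratio is given for that setting. Counting intervals do not cover differences between tumours, and classes under 100 cells have wide ones.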
